A study of Mus musculus with 3 samples.

Results

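Cxcl12, Cxcr4 and Ackr3 were measured as 3 of the 32285 genes in single-cell libraries of mouse lung endothelial cells (ECs). The genes were chosen by symbol as 1 signalling axis, and Cxcl12 was picked for its higher level at 30 h in these same libraries, so that its values at 30 h are a description and carry no test. The mice were wild-type C57BL/6, adult males per the study's methods. Control mice received PBS through the tail vein and were taken after 6 h, and mice with metastatic lungs received 200000 B16-F10 melanoma cells in 100 µl PBS and were taken after 6 h or 30 h. B16-F10, a mouse skin melanoma line, lodges in lung capillaries after such an injection. The labels give 2 mice per treatment and 1 library per group, so 3 libraries were compared with no replicate. The 30 h library had no control of its own time and was set against the 6 h control. All libraries were sorted for Pecam1-positive, Ptprc-negative cells after a warm collagenase digestion, and melanoma cells were added to the 6 h library, per the labels.

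CXCL12 is a chemokine that binds heparan sulphate on vessel walls. CXCR4 is the receptor that couples CXCL12 to inhibitory G proteins and draws leukocytes, progenitors and many tumor cells toward it. ACKR3, formerly CXCR7, binds CXCL12 without classical G protein signalling, works through arrestin and removes the ligand from the extracellular space. In blood vessels CXCL12 is known as an arterial product and CXCR4 as a receptor of angiogenic tip cells, and MIF is a further ligand described for both receptors.

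Cxcl12 (ENSMUSG00000061353) lies on the plus strand of chromosome 6, from 117168535 to 117181367. Cxcr4 (ENSMUSG00000045382) is on the minus strand of chromosome 1, from 128588199 to 128592293, and Ackr3 (ENSMUSG00000044337) on its plus strand, from 90203980 to 90216751 (GENCODE M21, GRCm38). No other annotated gene overlaps any of them. The 4 annotated transcripts of Cxcl12 have 4 different ends, and counts of 3′ tags per gene do not separate them. The 120 bases before each RefSeq start (GRCm38.p6) are shown because they are the regulatory sequence nearest the counted transcripts. Each is written 5′ to 3′ on the strand of its gene, and capitals mark TATAAA and GGGCGG on either strand.
Cxcl12, chr6:117168415-117168534: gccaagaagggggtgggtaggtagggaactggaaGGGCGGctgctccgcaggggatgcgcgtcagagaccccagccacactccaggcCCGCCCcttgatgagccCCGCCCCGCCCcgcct
Cxcr4, chr1:128592300-128592419: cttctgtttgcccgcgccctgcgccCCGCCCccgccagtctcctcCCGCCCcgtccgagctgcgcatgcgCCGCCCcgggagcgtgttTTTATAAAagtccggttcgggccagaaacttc
Ackr3, chr1:90203860-90203979: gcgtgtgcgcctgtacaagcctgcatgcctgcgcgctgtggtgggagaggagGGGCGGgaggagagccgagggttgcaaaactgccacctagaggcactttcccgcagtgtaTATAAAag
GGGCGG, the letters of a GC box, occurred 4 times before Cxcl12, 3 times before Cxcr4 and 1 time before Ackr3, and 26.5% of 32851 windows of the same length held it. TATAAA, the letters of a TATA box, occurred before Cxcr4 (2 overlapping matches, 1 on each strand) and Ackr3, in 6.34% of all windows. These letters are absent from the Cxcl12 window. A match is a description of the sequence and not a site.

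Endothelial barcodes had 1000 to 5000 genes, under 20% mitochondrial UMIs and at least 2 UMIs of the endothelial genes Pecam1 and Cdh5 together. They numbered 11231 in the control, 10583 in the 6 h and 9278 in the 30 h library, with medians of 7782, 8033 and 8675.5 UMIs. A UMI is a tag that marks 1 captured RNA molecule. Classes were gated by the number of their markers detected, without the 3 genes: general capillary (gCap-like, 7845, 7401 and 5949 barcodes), aerocyte (aCap-like, 1482, 1219 and 1403), artery-like (192, 149 and 240), vein-like (672, 505 and 540) and lymphatic (LEC-like, 69, 54 and 55). Between 4 and 6 of the 10 genes that led each class by fold were markers of its gate. The remaining 971, 1255 and 1091 barcodes, led by Fabp4, Sftpc and immune genes, stayed unnamed. Doublets were kept in the main values, and 60 to 77 endothelial barcodes per library had a sequence also kept in another library. Each class of each library was summed, and sums were divided by their total UMIs and given per 1000000 (CPM). All intervals are at 95% and cover counting error only, not the difference between mice.

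Over all ECs, Cxcl12 was 3.53-fold as high at 30 h as in the control. Its level was 274 CPM (271 to 278) in the control, 293 CPM (289 to 297) at 6 h and 967 CPM (961 to 974) at 30 h. The log2 ratio to control was 0.09 (0.07 to 0.12) at 6 h and 1.82 (1.80 to 1.84) at 30 h. The 30 h library therefore stood apart, while the other libraries differed by 1.07-fold. Among the 10175 genes whose mean reached 5 CPM, its log2 ratio of CPM + 1 at 30 h ranked 11 from the highest, and at 6 h 2620. Red cell and epithelial markers were lowest in the 30 h library. Red cell markers (4 genes, none at 0) stood over all ECs at 3243, 2115 and 827 CPM and epithelial markers (6 genes, none at 0) at 769, 571 and 367 CPM, in the order control, 6 h, 30 h. In gCap-like ECs they stood at 3242, 1985 and 886 CPM and at 686, 432 and 202 CPM. With the free RNA estimated from these markers removed, the Cxcl12 ratio at 30 h was 1.78 over all ECs and 1.72 in gCap-like ECs.

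Ackr3 was somewhat higher in both metastatic libraries. It had 97.6 CPM (95.6 to 99.7) in the control, 113 CPM (111 to 115) at 6 h and 130 CPM (127 to 132) at 30 h, with log2 ratios of 0.21 (0.17 to 0.25) and 0.41 (0.37 to 0.45). On CPM + 1 these ranked 1281 from the highest of the 10175 genes at 6 h and 873 at 30 h, so many genes were higher by as much. Cxcr4 was scarce, at 18.5 CPM (17.6 to 19.4), 14.4 CPM (13.6 to 15.2) and 18.8 CPM (17.9 to 19.8). It was lowest at 6 h, with a log2 ratio to control of −0.36 (−0.47 to −0.26), and at 30 h the ratio was 0.02 (−0.08 to 0.13). None of the 3 genes was past 1.5-fold at 6 h, where 1.8% of the 10175 genes were past it upward and 1.14% downward. At 30 h 1 of 3, Cxcl12, was past it, against 4.24% of genes upward (431) and 4.39% downward (447). With TMM scaling, which sets libraries to a common middle, 555 were past it upward and 311 downward. The count of 1 of 3 members at 30 h follows from how Cxcl12 was picked.

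Cxcl12 ranked the EC classes steeply, with artery-like ECs highest in every library. In artery-like ECs it had 1769.9 CPM (1708 to 1834) in the control, 2084 CPM (2009 to 2160.3) at 6 h and 6377 CPM (6275 to 6481) at 30 h. gCap-like ECs followed with 313 CPM (309 to 318), 307 CPM (303 to 312) and 1069 CPM (1060.4 to 1078). The artery-like level was 5.65-fold the gCap-like one in the control, 6.78-fold at 6 h and 5.96-fold at 30 h.

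The other classes were far lower. Vein-like ECs had 66.3 CPM (60.4 to 72.7), 97.2 CPM (89.0 to 106) and 260.1 CPM (247 to 274). aCap-like ECs, the large gas-exchange capillary cells, had 46.8 CPM (43.5 to 50.3), 48.2 CPM (44.5 to 52.1) and 149 CPM (143 to 155). LEC-like barcodes, only 54 to 69 per library, had 52.7 CPM (35.8 to 74.9), 43.7 CPM (26.3 to 68.2) and 131 CPM (102 to 165). The order artery, gCap, vein, then aCap and LEC held in all 3 libraries but for the lowest places: the LEC-like interval overlapped the aCap-like one in each library and the vein-like one in the control.

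**Figure D1:**
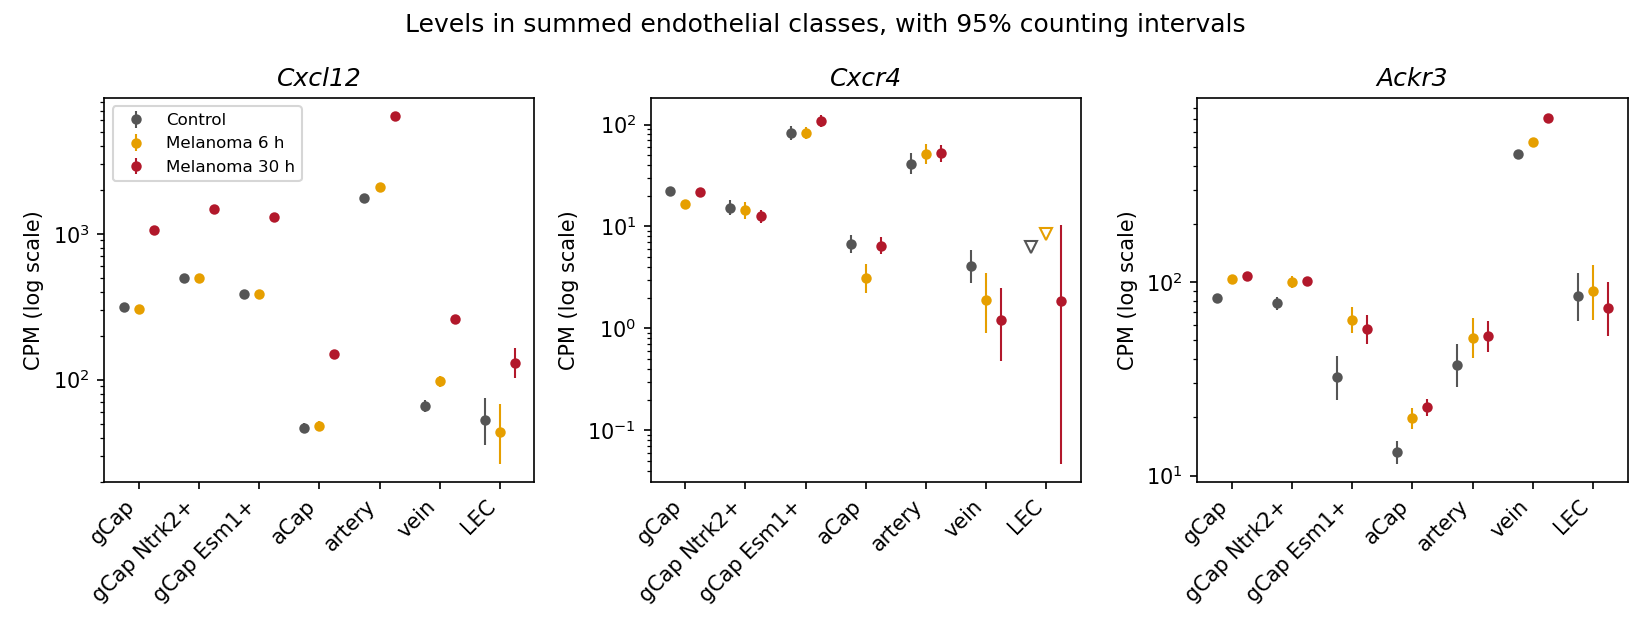
Level of each gene in CPM (log scale) in the summed barcodes of each EC class, by library; points are sums and bars 95% Poisson intervals, and an open triangle is the upper limit where no UMI was counted. Cxcl12 was highest in artery-like ECs (6377 CPM at 30 h) and Ackr3 in vein-like ECs (707 CPM at 30 h), while Cxcr4 was highest in Esm1-positive gCap-like barcodes (108 CPM at 30 h).

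At 30 h the higher Cxcl12 level was found in each class. The log2 ratio to control was 1.97 (1.82 to 2.12) in vein-like, 1.85 (1.79 to 1.91) in artery-like, 1.77 (1.75 to 1.79) in gCap-like, 1.67 (1.55 to 1.79) in aCap-like and 1.31 (0.68 to 1.97) in LEC-like barcodes. Fibroblast markers (6 genes) were also highest at 30 h in artery-like ECs, at 33.9, 22.0 and 116 CPM summed, with Lum at 0 in all 3 libraries. The artery-like Cxcl12 ratio was 1.77 without barcodes that held 2 markers of another cell type (4 for epithelium). In vein-like ECs, epithelial markers (6 genes, none at 0) stood at 405 CPM in the control, 154 CPM at 6 h and 569.8 CPM at 30 h, and immune markers (8 genes, none at 0) at 28.4, 31.6 and 124 CPM. In LEC-like barcodes, epithelial markers (Epcam at 0) were at 2579, 133 and 95.6 CPM. Without barcodes holding at least 2 UMIs of another cell type's markers, the 30 h ratio was 1.82 in vein-like and 2.49 in LEC-like barcodes. With classes gated on barcodes thinned to 2000 UMIs it was 1.58 and 0.69. The alternatives together ran from 1.58 to 2.19 in vein-like, 1.77 to 2.02 in artery-like and 1.33 to 1.93 in aCap-like ECs. The highest vein-like and aCap-like values came with free RNA removed. The LEC-like levels came from 31 control and 71 30 h UMIs, and the size of their ratio depended on which barcodes were kept.

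At 6 h the ratios were small and differed among the classes. Vein-like ECs had a log2 ratio of 0.55 (0.37 to 0.74) and artery-like ECs 0.24 (0.16 to 0.31), whereas gCap-like ECs stood at −0.03 (−0.06 to 0.00), aCap-like ECs at 0.04 (−0.11 to 0.20) and LEC-like barcodes at −0.27 (−1.18 to 0.60). The vein-like interval lay above the gCap-like and aCap-like ones, but the vein-like levels in both libraries were below those of empty droplets. With free RNA removed the vein-like ratio was 0.80, and without barcodes holding at least 2 UMIs of another cell type's markers it was 0.45 in vein-like and 0.48 in artery-like ECs. In artery-like ECs, some markers of other cell types were higher at 6 h than in the control too. Those of pericytes or smooth muscle (8 genes, none at 0) were at 142, 278 and 146 CPM in the control, at 6 h and at 30 h. Those of platelets (4 genes, none at 0) were at 14.95, 124 and 71.6 CPM. Without barcodes that held 2 markers of another cell type (4 for epithelium), the 6 h ratio was 0.21 in artery-like and 0.64 in vein-like ECs. Other ways of gating, scaling and leaving out barcodes gave 0.45 to 0.80 in vein-like and 0.21 to 0.49 in artery-like ECs. In the unnamed barcodes Cxcl12 had 321 CPM in the control and 470 CPM at 6 h, a log2 ratio of 0.55 (0.44 to 0.65), with 1103 and 2462 Cxcl12 UMIs from 971 and 1255 barcodes. Artery-like ECs gave 3078 and 2942 UMIs, vein-like ECs 465 and 514, and gCap-like ECs 19514 and 19014, so that the UMI count differed most in the unnamed barcodes. The unnamed set was itself larger at 6 h, with 5241228 UMIs of all genes against 3431770 in the control. Its barcodes were shallow, with medians of 2680 UMIs in the control and 2942 at 6 h. They met either no gate or at least 2, and so are not a defined population.

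**Figure D2:**
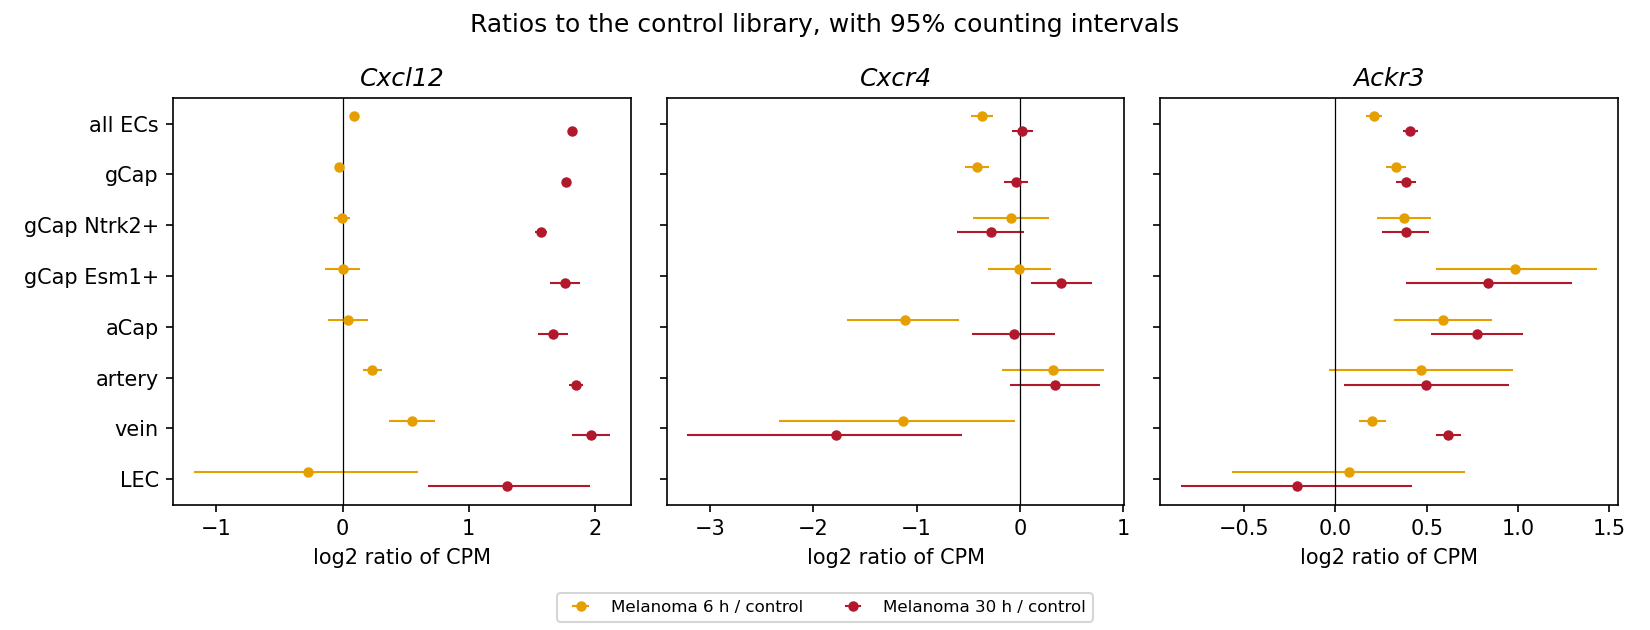
Log2 ratio of CPM to the control library for each gene, over all ECs and by class, at 6 h (orange) and 30 h (red); bars are 95% counting intervals and no value is drawn for Cxcr4 in LEC-like barcodes. Cxcl12 lies above 0 in every class at 30 h (1.31 to 1.97 in the 5 classes), Ackr3 near 0.4 in gCap-like ECs, and Cxcr4 below 0 at 6 h in gCap-like ECs; the aCap-like and vein-like Cxcr4 points rest on few UMIs and came to −0.08 and −0.09 when barcodes with other cell types' markers were left out, each under 1 of 2 rules.

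Ntrk2, the gene of the BDNF receptor TrkB, marked gCap-like barcodes with more Cxcl12. Ntrk2-positive barcodes, those with at least 1 Ntrk2 UMI, had 499 CPM (485 to 513) of Cxcl12 in the control, 497 CPM (482 to 513) at 6 h and 1486 CPM (1466 to 1506) at 30 h. gCap-like barcodes with neither Ntrk2 nor Esm1 had 277 CPM (273 to 282), 275 CPM (271 to 279.95) and 892 CPM (882 to 902). The Ntrk2-positive level was thus 1.80-fold, 1.81-fold and 1.67-fold the level without both genes. As counted, the 30 h ratio to control was slightly smaller among Ntrk2-positive barcodes (1.57, 1.53 to 1.62) than in those without both genes (1.68, 1.66 to 1.71). With classes and Ntrk2 gated on thinned barcodes, the Ntrk2-positive ratio was 1.29 at 30 h and −0.26 at 6 h. In barcodes without both genes the alternatives gave 1.63 to 1.73 at 30 h, so the size of the gap depended on the gate.

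Ntrk2 itself was not constant. It was found in 13.0% of gCap-like barcodes in the control, 11.8% at 6 h and 26.0% at 30 h, or in 4.65%, 4.11% and 9.40% after each barcode was thinned to 2000 UMIs. Its level over all ECs had a log2 ratio of 1.01 (0.93 to 1.09) at 30 h, so Ntrk2-positive barcodes at 30 h need not be the same population as in the control. With the control shares of all classes, and with Ntrk2-positive gCap-like barcodes as a class of their own, the Cxcl12 ratio over all ECs at 30 h was 1.69.

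Esm1 encodes endocan, known from tip cells. Esm1-positive gCap-like barcodes (218, 274 and 248) had 385 CPM (358 to 414), 386 CPM (362 to 410.4) and 1306 CPM (1260.2 to 1353) of Cxcl12. The control and 6 h libraries overlapped there, and the 30 h log2 ratio was 1.76 (1.64 to 1.88), against 1.77 in the whole gCap-like class. With classes and Esm1 gated on thinned barcodes it was 1.28, against 1.71 in the whole class. Immune markers stood at 21.7, 41.2 and 324 CPM in the Esm1-positive barcodes and red cell markers at 918, 577 and 2012 CPM.

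In gCap-like ECs the higher Cxcl12 sum at 30 h was spread over many barcodes. Before thinning, the 10% of gCap-like barcodes with the most Cxcl12 held 48.8%, 49.0% and 43.9% of its UMIs in the control, at 6 h and at 30 h. In aCap-like ECs they held 75.5% in the control and 71.0% at 30 h. After thinning to 2000 UMIs, the share of gCap-like barcodes with at least 1 Cxcl12 UMI was 34.3% (33.2 to 35.3) in the control, 33.4% (32.3 to 34.5) at 6 h and 64.8% (63.5 to 66.0) at 30 h. Unthinned, the shares were 63.0%, 63.9% and 87.7%. Thinning left out 65, 48 and 31 of the gCap-like barcodes. Positive barcodes also held more, with means of 1.86, 1.83 and 3.32 thinned UMIs. Before thinning, the median gCap-like barcode held 1, 1 and 5 Cxcl12 UMIs. Among immune-marker barcodes, which should lack the gene, 0 of 10, 0 of 38 and 2 of 32 thinned barcodes had a Cxcl12 UMI, the last of these 6.25% (0.77 to 20.8). Among epithelial-marker barcodes 4 of 25, 2 of 21 and 1 of 27 had one. The median depths were 9190, 8778 and 21613.5 UMIs for immune-marker and 1243, 1626 and 18154.5 UMIs for epithelial-marker barcodes, against 7621, 8047 and 8587 for gCap-like ones.

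In artery-like ECs, Cxcl12 was found in 83.6% (77.5 to 88.6), 89.9% (83.9 to 94.3) and 96.2% (92.97 to 98.3) of thinned barcodes, so that the difference at 30 h lay mostly in the number of UMIs per barcode. At least 10 of 2000 UMIs came from Cxcl12 in 7.41% of control, 10.1% of 6 h and 58.2% of 30 h artery-like barcodes. The median artery-like barcode held 11, 15 and 53 Cxcl12 UMIs before thinning. In aCap-like ECs the thinned shares were 7.22% (5.96 to 8.66), 6.07% (4.80 to 7.56) and 15.5% (13.6 to 17.5), and in vein-like ECs 11.6% (9.28 to 14.3), 14.3% (11.3 to 17.6) and 34.5% (30.5 to 38.7). The aCap-like and vein-like shares in the control and at 6 h lay within the counting intervals of the epithelial-marker shares, 16% (4.54 to 36.1) and 9.52% (1.17 to 30.4). The immune-marker barcodes allowed up to 30.8% in the control and 9.25% at 6 h, the latter below the vein-like but not the aCap-like share. The vein-like share at 6 h was thus above 1 of the 2 background sets, and the other low shares lay within the intervals of both. At 30 h the epithelial-marker share was 3.70% (0.094 to 19.0), below the vein-like one, and the aCap-like share lay within its interval.

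**Figure D3:**
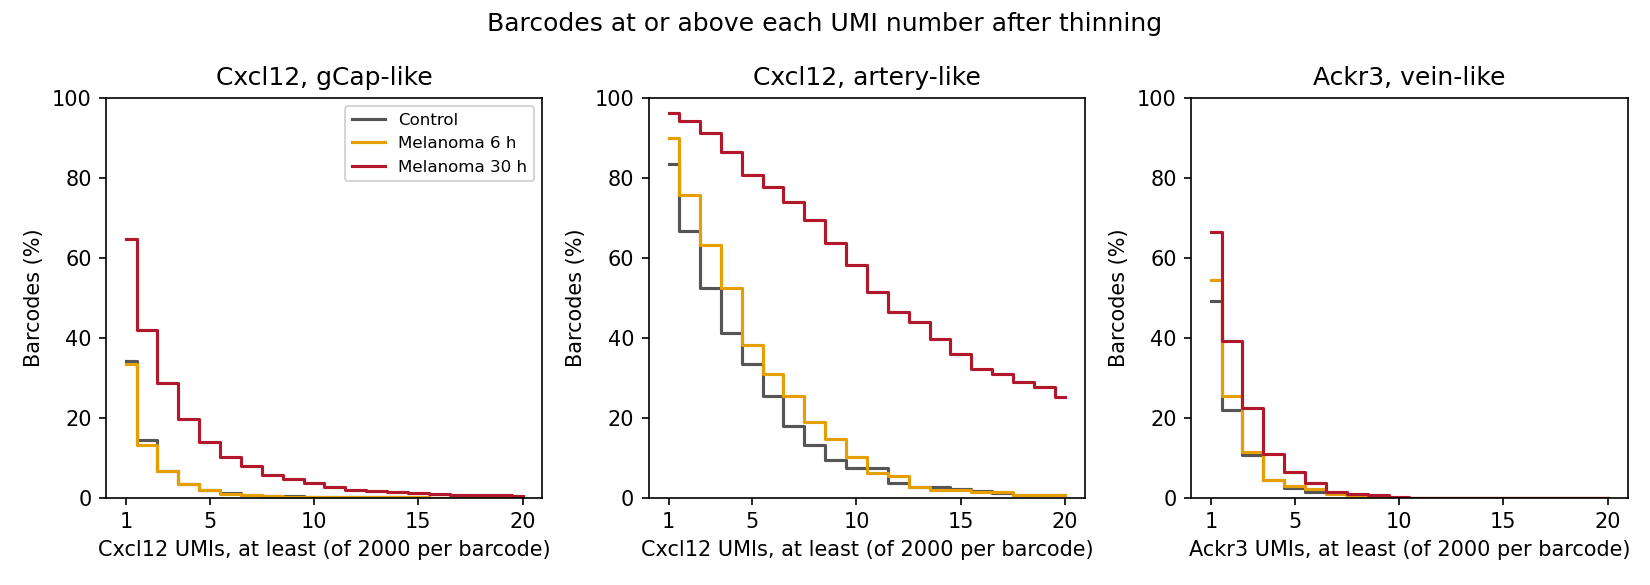
Share of barcodes (%) with at least the number of UMIs on the x axis, after thinning each barcode to 2000 UMIs, for Cxcl12 in gCap-like and artery-like ECs and Ackr3 in vein-like ECs; lines are libraries. At 30 h, 13.9% of gCap-like barcodes had at least 5 Cxcl12 UMIs against 1.94% in the control, and in gCap-like ECs the control and 6 h lines nearly coincide. Elsewhere the 6 h line starts above the control, at 89.9% against 83.6% for artery-like Cxcl12 and 54.4% against 49.1% for vein-like Ackr3.

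Free RNA of Cxcl12 moved with its level in cells. Droplets with at most 50 UMIs, taken as empty, held 142 CPM (128 to 157) in the control, 156 CPM (140.02 to 172) at 6 h and 486 CPM (461 to 512) at 30 h. If all epithelial and red cell UMIs in the endothelial sums were free RNA, such RNA made up 18.7%, 16.9% and 13.8% of their UMIs, and with that share removed the 30 h ratio over all ECs was 1.78. The aCap-like, vein-like and LEC-like levels of Cxcl12 lay below those of empty droplets, in CPM. At 30 h aCap-like ECs held 1.73 Cxcl12 UMIs per barcode, epithelial-marker barcodes 0.55 and immune-marker barcodes 0.0625. The immune-marker and epithelial-marker barcodes were required to hold fewer than 2 UMIs of Pecam1 and Cdh5, which also selects barcodes with little free endothelial RNA.

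Ackr3 had the opposite vessel side. Vein-like ECs led with 461 CPM (445 to 477) in the control, 529.9 CPM (510.4 to 549.9) at 6 h and 707 CPM (686 to 729) at 30 h. The log2 ratio was 0.20 (0.13 to 0.28) at 6 h and 0.62 (0.55 to 0.69) at 30 h, and the 3 libraries did not overlap. Immune markers in vein-like ECs were highest at 30 h too, at 28.4, 31.6 and 124 CPM. Epithelial markers there stood at 405, 154 and 569.8 CPM. Without barcodes holding at least 2 UMIs of another cell type's markers, the Ackr3 ratio was 0.11 at 6 h and 0.52 at 30 h. The thinned share of vein-like barcodes with an Ackr3 UMI was 49.1% (45.3 to 52.96), 54.4% (49.9 to 58.8) and 66.4% (62.3 to 70.4).

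gCap-like ECs had 82.5 CPM (80.3 to 84.8), 104 CPM (101 to 106) and 108 CPM (105 to 111) of Ackr3. Here most of the difference was present by 6 h, with a log2 ratio of 0.33 (0.28 to 0.38), and the 30 h ratio was 0.39 (0.33 to 0.44). The thinned share was 13.6% (12.9 to 14.4), 16.2% (15.4 to 17.1) and 16.9% (15.9 to 17.9). The 30 h library exceeded the 6 h library by 0.06 (0.01 to 0.11) in gCap-like and by 0.42 (0.35 to 0.49) in vein-like ECs, on the log2 scale.

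The remaining classes held less or uncertain amounts of Ackr3. Artery-like ECs had 37.4 CPM (28.8 to 47.6), 51.7 CPM (40.5 to 65.0) and 52.7 CPM (43.7 to 62.9), with overlapping intervals. aCap-like ECs were lowest at 13.2 CPM (11.4 to 15.1), 19.8 CPM (17.5 to 22.4) and 22.5 CPM (20.3 to 24.9), a log2 ratio of 0.59 (0.32 to 0.86) at 6 h and 0.77 (0.52 to 1.03) at 30 h. LEC-like barcodes had 85.1, 89.7 and 73.5 CPM, with intervals from 52.5 to 123 CPM that overlapped among libraries and overlapped the gCap-like values at 6 h and in the control. The artery-like ratio was 0.47 (−0.03 to 0.97) at 6 h and 0.49 (0.05 to 0.95) at 30 h. Ackr3 in empty droplets was 73.8 CPM (64.0 to 84.6), 85.3 CPM (73.9 to 98.0) and 94.4 CPM (83.5 to 106), above the aCap-like and artery-like levels and overlapping the gCap-like one in the control and at 30 h. At the free RNA share estimated for the control (18.7%), such RNA would make up all of the aCap-like control level. The size of the aCap-like ratios was therefore not settled.

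Within gCap-like ECs, Ackr3 was slightly lower with Ntrk2 and clearly lower with Esm1. Ntrk2-positive barcodes had 77.6, 101 and 101 CPM and those without both genes 85.2, 106 and 113 CPM, log2 ratios of −0.13 (−0.25 to −0.02), −0.08 (−0.19 to 0.03) and −0.16 (−0.25 to −0.08). Esm1-positive barcodes had 32.2 CPM (24.7 to 41.4) in the control, 63.7 CPM (54.4 to 74.2) at 6 h and 57.5 CPM (48.1 to 68.1) at 30 h. These were 0.379-fold, 0.600-fold and 0.507-fold the level without both genes. The 6 h ratio to control in Esm1-positive barcodes was 0.98 (0.55 to 1.43) and rested on 61 and 167 UMIs.

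Cxcr4 levels in CPM were higher in artery-like than in gCap-like ECs in each library. Artery-like ECs had 41.4 CPM (32.4 to 52.1) in the control, 51.7 CPM (40.5 to 65.0) at 6 h and 52.2 CPM (43.3 to 62.4) at 30 h, with overlapping intervals. Their ratio to control had no settled direction: at 30 h it was 0.33 (−0.10 to 0.78), −1.06 with classes gated on thinned barcodes and 1.31 without barcodes holding at least 2 UMIs of another cell type's markers, and the same alternatives gave −0.15 and 1.10 at 6 h. gCap-like ECs had 22.1 CPM (20.99 to 23.3), 16.6 CPM (15.6 to 17.7) and 21.6 CPM (20.3 to 22.9). The 6 h library was lowest there, with a log2 ratio of −0.41 (−0.53 to −0.30), and the 30 h ratio was −0.04 (−0.15 to 0.08). Without barcodes holding at least 2 UMIs of another cell type's markers, the ratio was −0.50 at 6 h and −0.41 at 30 h, so that a level at 30 h equal to the control depended on which barcodes were kept. Pericyte and smooth muscle markers (8 genes, none at 0) were lowest at 6 h in gCap-like ECs too, at 103, 87.3 and 117 CPM, and at 111, 86.8 and 125 CPM in those without Ntrk2 and Esm1. Without barcodes that held 2 markers of another cell type (4 for epithelium), the 6 h ratio was −0.38 in gCap-like ECs and −0.63 in those without both genes.

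Lower 6 h levels were seen in aCap-like ECs as well, with 6.77 CPM (5.55 to 8.19), 3.12 CPM (2.24 to 4.24) and 6.50 CPM (5.32 to 7.86). Pericyte and smooth muscle markers (8 genes), whose own barcodes held 132 to 225 CPM of Cxcr4, stood in aCap-like ECs at 89.8, 36.8 and 56.8 CPM. Without barcodes that held 2 markers of another cell type, the aCap-like log2 ratio at 6 h was −0.08, and 0.81 at 30 h. With free RNA removed the 6 h ratio was −2.05, against −1.12 (−1.67 to −0.59) as counted. Vein-like ECs held only 29, 10 and 7 Cxcr4 UMIs, or 4.14 CPM (2.77 to 5.94), 1.89 CPM (0.91 to 3.48) and 1.20 CPM (0.48 to 2.47). The vein-like log2 ratio at 6 h was −1.13 (−2.33 to −0.05), but −0.09 without barcodes holding at least 2 UMIs of another cell type's markers and −2.08 without those that held 2 markers (4 for epithelium). At 30 h it was −1.78 (−3.22 to −0.56), and −3.92 with classes gated on thinned barcodes, so that its size was not settled. The vein-like levels also lay below those of Cxcr4 in empty droplets in each library. At the free RNA shares estimated above, such RNA would make up all of the vein-like level at 6 h and at 30 h. The vein-like ratios were thus not separable from free RNA. LEC-like barcodes held 0, 0 and 1 UMI, and 0 UMIs allows up to 5.10 CPM in the control and 6.90 CPM at 6 h.

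Among the EC classes and subsets, Esm1-positive gCap-like barcodes had the most Cxcr4, at 82.4 CPM (70.0 to 96.4), 82.1 CPM (71.5 to 93.8) and 108 CPM (95.5 to 123). This was 3.88-fold, 5.95-fold and 5.48-fold the level of gCap-like barcodes with neither gene. The log2 ratio at 30 h was 0.40 (0.10 to 0.69). Immune markers (8 genes, Nkg7 at 0 in all 3 libraries) were highest at 30 h too, at 21.7, 41.2 and 324 CPM, and immune-marker barcodes held 126, 170.4 and 141 CPM of Cxcr4. Also highest at 30 h were pericyte and smooth muscle markers (8 genes, none at 0), at 90.9, 64.5 and 154 CPM, and red cell markers (4 genes, none at 0), at 918, 577 and 2012 CPM. Without barcodes holding at least 2 UMIs of another cell type's markers the ratio was −0.40, and without those holding 2 different markers 0.16. Among the 10 leading genes of the Esm1-positive barcodes were Gzmk, S100a8 and S100a9, which are known from leukocytes. In gCap-like barcodes with neither gene, Cxcr4 had 21.2, 13.8 and 19.8 CPM, and in Ntrk2-positive barcodes 15.3, 14.5 and 12.6 CPM, where the intervals overlapped. Empty droplets held 17.4 CPM (12.8 to 23.0), 13.3 CPM (9.03 to 18.9) and 19.3 CPM (14.6 to 25.1) of Cxcr4, so that the gCap-like level was not separable from that of free RNA by its height alone, while the artery-like and Esm1-positive levels lay above it.

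The share of gCap-like barcodes with a Cxcr4 UMI after thinning was 3.89% (3.48 to 4.35), 2.91% (2.54 to 3.32) and 3.67% (3.20 to 4.18). In vein-like barcodes it was 0.893% (0.33 to 1.93), 0.595% (0.12 to 1.73) and 0.371% (0.045 to 1.33). Epithelial-marker barcodes, which should lack the gene, held it in 1 of 25, 1 of 21 and 0 of 27, too few to separate from the gCap-like share. In Esm1-positive barcodes the share was 11.5% (7.56 to 16.5), 14.2% (10.3 to 18.9) and 16.5% (12.1 to 21.8), and the 3 intervals overlapped.

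Barcodes that held UMIs of both receptors were rare. Among thinned gCap-like barcodes, 26, 21 and 25 held both Cxcr4 and Ackr3, or 0.334% (0.218 to 0.489), 0.286% (0.177 to 0.436) and 0.422% (0.274 to 0.623). The product of the single shares was 0.531%, 0.472% and 0.619%. Of the same barcodes, 3.997% (3.57 to 4.46), 5.63% (5.11 to 6.18) and 10.1% (9.32 to 10.9) held both Cxcl12 and Ackr3, where the product was 4.67%, 5.42% and 10.9%. These are counts in sparse data, described without a test.

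Over the 15 sums of 5 classes in 3 libraries, Cxcl12 and Cxcr4 had a Pearson r of 0.84 on log2(CPM + 1), Cxcl12 and Ackr3 −0.06, and Cxcr4 and Ackr3 −0.32. The sums share libraries and classes, so that r describes mainly the order of the classes. The genes most like Cxcl12 among 10562 were Hibadh (r = 0.94), Pde1c (0.94), Shtn1 (0.94), Gja5 (0.93) and Slc6a6 (0.92). Gja5, which encodes the arterial gap junction protein connexin 40 and was itself a gate marker, had 98.9, 123 and 281 CPM in artery-like ECs, in the order control, 6 h, 30 h. Pde1c had 117, 155 and 232 CPM there.

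Most like Cxcr4 were Sema3g (r = 0.97), Cysltr2 (0.96), Esm1 (0.95), Plcb2 (0.95) and Tpgs2 (0.94). Sema3g, a secreted semaphorin of arterial endothelium, had 407, 449.7 and 632 CPM in artery-like ECs, and 24.7, 21.4 and 29.3 CPM in vein-like ECs. Most like Ackr3 were Rack1 (0.96), Mras (0.96), Rps15a (0.96), Mustn1 (0.95) and Rps20 (0.95). Mustn1 had 156, 146 and 178 CPM in vein-like ECs, and Rack1, a ribosomal scaffold protein gene, 756, 754 and 781 CPM.

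Few other genes of the pathway were past 1.5-fold, about the share found among all genes. Besides the 3 genes, 37 of the listed ligands, receptors, signalling genes and regulators were matched in the data (1 listed ligand was not), and 33 of them passed 5 CPM. At 6 h 1 of 33 was past 1.5-fold upward and 0 downward, where 1.8% and 1.14% of all genes were, with a median log2 ratio of 0.05 beside −0.01 over all genes. At 30 h 2 were past it upward and 1 downward, where 4.24% and 4.39% of all genes were, with a median of 0.00 beside −0.07.

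Among the ligands, Mif had 46.7 CPM in the control, 56.6 CPM at 6 h and 74.2 CPM at 30 h, a log2 ratio of 0.67 (0.61 to 0.72) at 30 h. Hmgb1, whose protein can form a complex with CXCL12, had 682 CPM in the control and 852 CPM at 30 h (0.32, 0.30 to 0.34). Among the receptors, Cd74, which binds MIF and is the class II invariant chain, had 227, 272 and 145 CPM, a log2 ratio of 0.26 (0.24 to 0.29) at 6 h and −0.64 (−0.68 to −0.61) at 30 h. Cd44, its partner, stood at 0.12 (0.04 to 0.21) at 30 h. In gCap-like ECs the ratios at 30 h were 0.70 (0.63 to 0.77) for Mif and −0.73 (−0.77 to −0.69) for Cd74.

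Of 18 signalling and receptor turnover genes, 16 passed 5 CPM and 0 were past 1.5-fold in either comparison, which at the low shares among all genes is no result about this list. Grk5, a kinase of activated receptors, had a log2 ratio of −0.55 (−0.58 to −0.51) at 30 h, and Itch, the ubiquitin ligase that sorts CXCR4 for degradation, −0.52 (−0.56 to −0.48). Jak2 stood at −0.40 (−0.46 to −0.33) at 30 h but at 0.30 (0.24 to 0.35) at 6 h. Dpp4, the peptidase that inactivates CXCL12 by trimming it, stood at 0.27 (0.23 to 0.30) at 30 h and at −0.17 (−0.21 to −0.13) at 6 h. The 30 h library set against the 6 h library gave −0.69 for Jak2. The other values here are at 30 h. The G protein gene Gnai2 was at 0.20 (0.19 to 0.22) and the arrestin gene Arrb1 at −0.14 (−0.18 to −0.10).

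Of 12 upstream regulators, 11 passed. Vegfa had 192 CPM in the control and 367 CPM at 6 h, a log2 ratio of 0.94 (0.91 to 0.96), and its 30 h ratio was 0.39 (0.36 to 0.42). Its receptor gene Kdr was at 0.69 (0.67 to 0.70) at 30 h, and at 0.54 (0.51 to 0.57) within gCap-like ECs. Foxf1, a transcription factor of lung vessels, was at 0.48 (0.47 to 0.50) over all ECs and at 0.72 (0.70 to 0.74) in gCap-like ECs. Hif1a, the hypoxia factor, was at −0.22 (−0.27 to −0.16), and the arterial factor Sox17 at −0.01 (−0.04 to 0.02), at 30 h. At 6 h Hif1a was higher than in the control, at 0.24 (0.19 to 0.29). Hey1, an arterial Notch target, had the lowest ratio of the 11, at −0.34 (−0.37 to −0.31) at 6 h and −0.45 (−0.48 to −0.42) at 30 h.

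**Figure D4:**
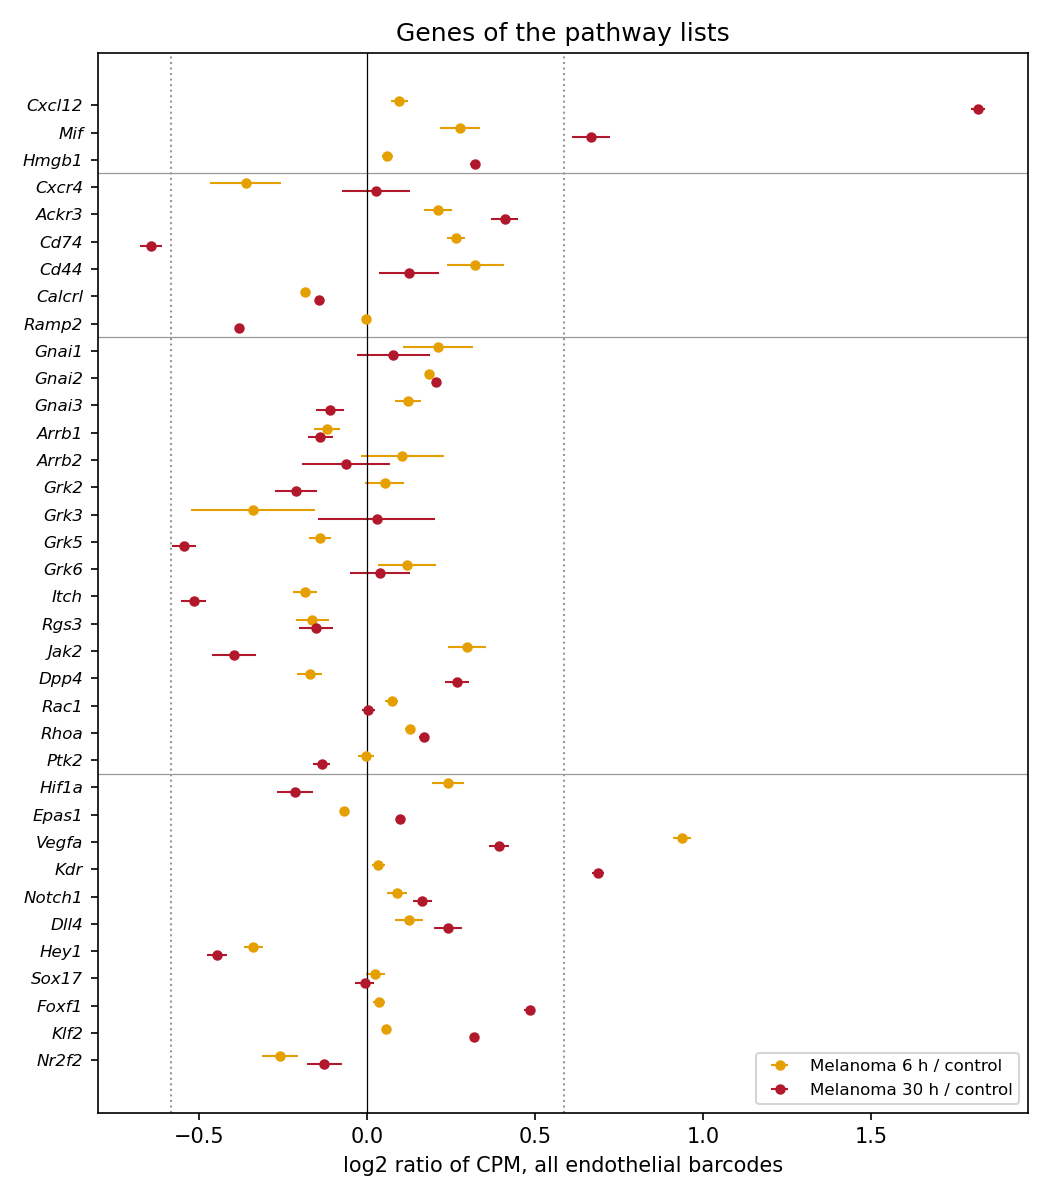
Log2 ratio of CPM to the control library over all ECs for the 36 genes of the pathway lists that passed 5 CPM, the 3 genes included, at 6 h (orange) and 30 h (red); bars are 95% counting intervals, lines part the 4 lists and dotted lines mark 1.5-fold. Cxcl12 at 30 h (1.82) lies apart from the rest, which stay between −0.64 (Cd74) and 0.94 (Vegfa at 6 h).

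The 20 barcodes with melanoma markers in the 6 h library held 0 UMIs of each of Cxcl12, Cxcr4 and Ackr3 in 191109 UMIs, which allows up to 15.7 CPM of each. The same barcodes held 402 Mif UMIs, or 2104 CPM (1903 to 2319.5), against 56.6 CPM in the ECs of that library. Melanoma markers (8 genes) summed to 1.85, 14.7 and 1.24 CPM in all ECs and to 1.45, 122 and 1.03 CPM in empty droplets, in the order control, 6 h, 30 h.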

How the data were processed

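Each deposited matrix holds raw UMI counts, which the authors made with Cell Ranger 7.2.0 per the file headers, while the study's methods name an earlier version. The labels name a 3′ kit and mm10, and whether intronic reads were counted is not given in the sources used here. The matrices were not normalized and list empty droplets too. Of 32285 gene IDs, 32158 were found in GENCODE M21. The 3 genes and all lists were chosen with earlier results of these data known. The gates needed at least 6 markers (aCap, gCap, vein) or 5 (artery, LEC), with gCap only where no other gate was met. Other cell types needed 3 markers, at least 300 genes and under 2 UMIs of Pecam1 plus Cdh5. Library totals were 124085451 to 140601123 UMIs. CPM was computed from sums (Python 3.11.15, numpy 2.4.6, scipy 1.17.1), with exact Poisson intervals for levels, exact conditional binomial intervals for ratios and Clopper-Pearson intervals for shares. In the text, a count of 0 was given the limit of 3 counts. With 1 library per group no test was run and the intervals cover counting error only. Genes named beyond the 3 were those of 4 pathway lists that passed 5 CPM and, per gene, the 5 of highest r. The fold limit was 1.5 on CPM + 1. Scrublet (scanpy 1.11.5) ranked doublets, 0.8% per 1000 barcodes, for an alternative without them. edgeR 4.0.16 (R 4.3.3) gave TMM factors for another. The fold limit and the ratio intervals were checked on Poisson sums drawn from the control gCap-like rates, with no variation between mice. That check did not cover the gates, the thinning or the removal of free RNA. Not settled here were the number of mice, since the study's methods give another number than the labels, and whether melanoma cells went into the 30 h library.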

Additional observations from a re-analysis of the deposited data

Results flagged for a closer look

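Values outside the endothelial sums that were above the control library by more than counting error are given here, with no explanation. In droplets taken as empty, the log2 ratio of the 30 h library to the control was 1.78 for Cxcl12 and 0.36 for Ackr3. In fibroblast-marker barcodes (39 in the control, 38 at 6 h and 38 at 30 h), Cxcl12 had 11, 32 and 48 UMIs, a log2 ratio of 1.96 at 6 h and 2.46 at 30 h. In pericyte or smooth muscle barcodes (58, 31 and 40) it had 13, 5 and 29 UMIs, a log2 ratio of 1.95 at 30 h. These barcodes were sorted as Pecam1-positive and are few, and their free endothelial RNA was not separated from their own.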

How the results depend on the processing

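No paired analysis was possible because each group has 1 library. Intervals cover counting error only, few Cxcr4 UMIs limit its values in vein-like and LEC-like barcodes, and alternatives are called moved here when they left the counting interval of the main value. Over all ECs 62 of 84 alternative values stayed inside it and 0 changed sign against a value whose interval excluded 0. Those that left it, as log2 ratios to control, follow. Without barcodes holding at least 2 UMIs of another cell type's markers (which removed 8307 of 11231 control barcodes), Cxcl12 was 0.0463 at 6 h and 1.74 at 30 h, Ackr3 0.28 and 0.46, and Cxcr4 −0.27 at 30 h. With a narrower rule chosen after seeing the data, without barcodes that held 2 markers of another cell type (4 for epithelium), Cxcr4 was −0.11 at 30 h. With the control library's class mix Cxcl12 was 0.0527 and 1.78 and Ackr3 0.29 and 0.48, and with Ntrk2-positive barcodes as a further class, also chosen after seeing the data, Cxcl12 was 1.69 at 30 h and Ackr3 0.29 and 0.49. With the mean of CPM per barcode Cxcl12 was 0.0667 and 1.79, and thinned to 2000 UMIs 0.0345 and 1.79. At 30 h Cxcl12 was 1.89 with TMM scaling, 1.86 with median of ratios and 1.78 with free RNA removed, and Ackr3 0.48 with TMM and 0.45 with median of ratios. In the classes 206 of 271 values stayed inside, 64 left and 1 reversed: Cxcr4 in Esm1-positive barcodes at 30 h, −0.40 without mixed barcodes. The cause was not tested. With no minimum CPM, genes past 1.5-fold numbered 294 upward and 180 downward at 6 h (183 and 116 with it) and 714 upward at 30 h (431 with it). TMM scaling gave 555 upward and 311 downward at 30 h, against 431 and 447.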
